A study of Mus musculus with 46 samples.

Results

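Apolipoproteins and the proteins that receive or load them were measured in 46 single cells from the cochlea of C57BL/6 mice at postnatal day 10. The group of interest comprised 5 genes, chosen by symbol from the 29871 genes listed: Apoe, Apod, Clu, Lrp1 and Abca1. All cells came from 1 labelled group, Dio2creERt2:Ai6, and the labels' protocol describes the mice as heterozygous for the Dio2 allele. In this cross a Cre recombinase made under the control of Dio2, the gene of the type 2 deiodinase that makes active thyroid hormone, switches on the green fluorescent Ai6 reporter, which stays on in the cell and its descendants. CreERt2 is a form of Cre that acts only in the presence of a tamoxifen-type drug, and the labels state no drug. Fluorescent cells were picked by hand from dissociated tissue. Each is labelled as Dio2-expressing, but Dio2 was at 1 CPM (count per 1000000 reads) or more in 30 of 46 cells and at most 0.465 CPM in the 4 cells rich in macrophage RNA described below. No animal was named for any cell, so the 46 cells count as 1 sample, and none of the differences between cells described here has a test or a replicate check. Standard deviations (SD) are over cells.

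Apolipoproteins are the protein part of lipid particles. Apolipoprotein E (Apoe) carries cholesterol and phospholipid between cells and is a product of macrophages and many stromal and glial cells. Clusterin (Clu, also called apolipoprotein J) is a secreted chaperone found on lipid particles. Apolipoprotein D (Apod) belongs to another family, the lipocalins, and carries small lipids such as arachidonic acid. Lrp1 is a large endocytic receptor of the low density lipoprotein (LDL) receptor family that takes up particles bearing Apoe. Abca1 is not a receptor in the strict sense but a membrane transporter that hands cholesterol and phospholipid to apolipoproteins outside the cell. Its gene is a known target of the liver X receptors (LXRs), nuclear receptors that sense oxidised cholesterol.

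The genes lie apart in the genome (GENCODE M21 on GRCm38). Apoe (NCBI Gene 11816) is on chromosome 7 from 19696109 to 19699188, Apod (11815) on chromosome 16 from 31296192 to 31314808, Lrp1 (16971) on chromosome 10 from 127538161 to 127621148 and Abca1 (11303) on chromosome 4 from 53030787 to 53159895, all on the minus strand. Clu (12759) is on the plus strand of chromosome 14 from 65968483 to 65981547. Lrp1 is overlapped by an annotated gene on the other strand, Gm16217, and without strand information reads of that pair cannot be told apart. The other 4 genes overlap no annotated gene.

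The promoters of 4 members are shown because the RNAs of these genes were found in different cells, and because Abca1 has a well known LXR element. Each stretch holds the 150 bases before the annotated start, 5′ to 3′ on the gene's strand (RefSeq, GRCm38.p6), with 3 searched motifs in capitals. Apoe has 3 annotated starts, of which 1 was used.
Abca1, chr4:53159896-53160045, minus strand: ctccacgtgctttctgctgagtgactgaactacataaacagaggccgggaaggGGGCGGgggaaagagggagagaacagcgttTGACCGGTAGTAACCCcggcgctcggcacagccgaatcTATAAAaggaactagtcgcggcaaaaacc
Apoe, chr7:19699189-19699338, minus strand: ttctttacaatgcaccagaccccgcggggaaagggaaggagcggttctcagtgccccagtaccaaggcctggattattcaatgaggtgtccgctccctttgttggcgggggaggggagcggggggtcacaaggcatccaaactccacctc
Apod, chr16:31314809-31314958, minus strand: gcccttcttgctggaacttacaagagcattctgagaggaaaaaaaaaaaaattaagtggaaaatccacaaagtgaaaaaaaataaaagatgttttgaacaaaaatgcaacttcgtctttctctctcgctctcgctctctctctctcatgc
Lrp1, chr10:127621149-127621298, minus strand: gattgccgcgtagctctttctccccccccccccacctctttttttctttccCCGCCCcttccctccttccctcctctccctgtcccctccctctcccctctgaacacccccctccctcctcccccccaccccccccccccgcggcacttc
The 3 motifs were searched on both strands in the 250 bases before the start. A direct repeat with a spacer of 4 bases, of the kind that LXRs bind, was written as NGGTNA and NGGTCA with 4 bases between them, letters chosen with the Abca1 element known. It occurred in Abca1 at positions -67 to -52, counted back from the start site, on the strand opposite to the gene, and in none of the other 3 windows. Of 32817 promoter windows of the same length, 58 (0.177%) held it. A TATA box, TATAAA, occurred in Abca1 at -29 to -24 and in 12.4% of all windows. A GC box, GGGCGG, occurred in Abca1, with 1 copy in the printed stretch, in Lrp1, where it reads CCGCCC, and in 32.7% of all windows. The share of G and C in the 250 bases was 61.6% for Abca1, 57.2% for Apoe, 67.2% for Lrp1 and 36.4% for Apod, against a median of 52.4% over all windows. The Apod window was richer in A and T than most, with 6.24% of windows below it. A match to letters is a description of sequence, and no protein binding was measured.

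Cells were described in 4 classes set by the level of 3 genes that are not members. Levels are in CPM. The C1qb-high class (4 cells) had at least 500 CPM of C1qb, a complement gene of macrophages. The Otos-high class (9 cells) had at least 1000 CPM of Otos, the gene of the fibrocyte protein otospiralin, and the Ibsp-high class (12 cells) had at least 1000 CPM of Ibsp, the gene of bone sialoprotein. The rest (21 cells) passed none of these, and no cell passed 2. The thresholds lay in wide gaps. C1qb was 3048 CPM in the lowest cell inside its class and 148 CPM in the highest cell outside, Otos 1213 and 112 CPM, and Ibsp 7618 and 107 CPM. All 9 macrophage markers had medians of at least 100 CPM in C1qb-high cells, 8 of 9 cochlear fibrocyte markers did so in Otos-high cells and 9 of 9 osteoblast markers did so in Ibsp-high cells. Each of these lists includes the gene that set the class (C1qb, Otos or Ibsp), so 1 marker in each count was fixed by the threshold. Ibsp-high cells also had 3 of 9 fibrocyte markers at that level, and Otos-high cells had 1 of 9 osteoblast markers. The rest was mixed, with 4 of 9 fibrocyte and 2 of 9 osteoblast markers at that level. The classes followed the numbering of the cells. The Ibsp-high cells were numbers 1 to 12 and the C1qb-high cells numbers 43 to 46, so class and order of numbering cannot be told apart. Each cell had 2522853 to 10350249 reads in listed genes. Low reads of abundant genes turned up in nearly all cells. For 12 of 14 abundant osteoblast and macrophage markers, the median outside their class was 0.179% to 0.432% of the gene's mean over 46 cells. Dmp1 and Spp1, the other two, were at 3.36% and 2.99%. This low level is called carry-over here, and its source was not tested. Cells are called above it where a gene reached 1% of its mean, and at least 1 CPM.

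Apoe was found in every class but at levels that differed by orders of magnitude. The 4 C1qb-high cells held 61104, 91484.5, 69937 and 78024 CPM, which is 6.11%, 9.15%, 6.99% and 7.80% of all their reads. The Otos-high cells had 3596 CPM in the lowest, 7545 CPM in the median and 18411 CPM in the highest cell. The Ibsp-high cells had 27.3, 205 and 2042.5 CPM in the lowest, median and highest cell. In the rest these values were 216, 7838 and 19560 CPM.

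The C1qb-high cells did not overlap with any other cell, and the Otos-high cells did not overlap with the Ibsp-high cells, while the Otos-high cells lay within the range of the rest. These 2 gaps were shared by 0.699% and 0.515% of the genes at 1 CPM or more in at least 5 cells. Apoe reached at least 1000 CPM in 32 of 46 cells (69.6%, exact Clopper-Pearson 95% interval 54.2% to 82.3%). Of the 12 Ibsp-high cells, 2 reached it, cell 1 with 1414 CPM and cell 12 with 2042.5 CPM. At the other end, cell 4 had 27.3 CPM, which is 0.229% of the mean of Apoe over all cells and thus at the carry-over level. Cell 11, with 53.2 CPM, was also under the limit of 119 CPM. The other 10 Ibsp-high cells were above it. With the limit at 2% of the mean, only 4 of the 12 Ibsp-high cells were above it.

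In the rest, 17 of 21 cells had at least 4293 CPM of Apoe and the other 4 had at most 720 CPM. Those 4 were cells 20, 38, 41 and 42, singled out after their values were seen. They had 313, 484, 720 and 216 CPM of Apoe in this order. Counts and summed levels of osteoblast markers overlapped between these cells and the other 17. Levels of Runx2, 1 of the 9 markers, lay above the other 17 in cells 20, 38 and 42 but not in cell 41. Of the 9 osteoblast markers, 3, 1, 1 and 4 reached 100 CPM in cells 20, 38, 41 and 42, against 0 to 4 (median 2) in the other 17 cells. The summed level of the 9 markers ran from 471 to 23074 CPM in the 4 cells and from 94.6 to 31985 CPM in the other 17. Of these markers, Runx2 was at 292, 328, 0.174 and 114 CPM in cells 20, 38, 41 and 42. In the other 17 cells Runx2 was at most 59.4 CPM, in cell 21. Sp7 reached 704 CPM in cell 20 and 726 CPM in cell 35 of the other 17. Both genes were singled out after their values were seen.

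**Figure D1:**
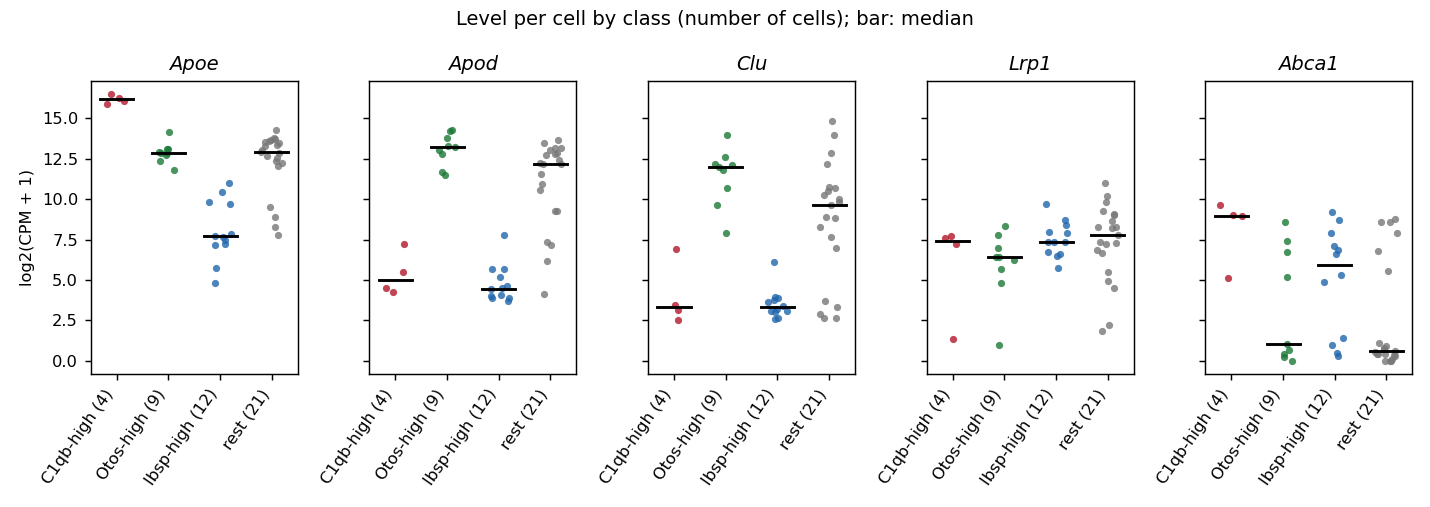
Level of each member in each cell, as log2(CPM + 1), by class, with the number of cells in brackets. Points are cells, bars are medians. Apoe lay at 61104 CPM and above in the 4 C1qb-high cells, Apod and Clu were high in Otos-high cells and low in Ibsp-high cells, Lrp1 overlapped between all classes, and Abca1 formed a low and a high band.

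Apod set the Otos-high cells apart from the Ibsp-high and C1qb-high cells, while the rest overlapped with every other class. Otos-high cells had 2881 CPM in the lowest, 9766 CPM in the median and 19480 CPM in the highest cell. Ibsp-high cells had 11.8, 21 and 221 CPM, and in the rest the values were 16.8, 4706 and 13141 CPM. The 4 C1qb-high cells had 148, 21.5, 43 and 17.9 CPM.

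Every Otos-high cell was thus above every Ibsp-high and every C1qb-high cell. Between Otos-high and Ibsp-high cells, 0.515% of the genes at 1 CPM or more in at least 5 cells did not overlap. This share was not computed for Otos-high against C1qb-high cells. In 9 of 12 Ibsp-high cells Apod was under the carry-over limit of 42.3 CPM, and the lowest cell was at 0.279% of the mean. Cell 3, at 221 CPM, was the highest Ibsp-high cell. In the rest 20 of 21 cells were above the limit. The exception was cell 20, at 16.8 CPM, which was also low in Apoe. The next lowest of the rest were cell 17 with 70.2 CPM, cell 38 with 143 CPM and cell 42 with 165 CPM. Overall 24 of 46 cells reached 1000 CPM (52.2%, 36.9% to 67.1%).

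Cell 43 had the most Apod of the C1qb-high cells. It also held RNA of genes that mark other cell types. The myelin genes Mbp and Cnp were at 9582 and 532 CPM in cell 43, and Otos was at 112 CPM, the highest value outside the Otos-high class. In the other 3 C1qb-high cells Mbp was at 35.3, 84.2 and 337 CPM. Sox10 and Pmp2, also on the Schwann and glia marker list, had no read in any C1qb-high cell. Summed over the 6 markers of this list, levels ran from 54.2 to 11116 CPM in C1qb-high cells, from 1.86 to 1740 CPM in Otos-high cells, from 0.978 to 4370 CPM in Ibsp-high cells and from 1.43 to 5796 CPM in the rest. The part of these genes in the Apod values was not tested.

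Clu, like Apod, was high in Otos-high cells and low in Ibsp-high cells. Its SD on the log2(CPM + 1) scale was larger than that of Apod in Otos-high cells (1.80 and 0.99) and the rest (3.73 and 2.71), and smaller in Ibsp-high cells (0.93 and 1.17). Otos-high cells had 234 CPM in the lowest, 4135 CPM in the median and 16046.5 CPM in the highest cell. Ibsp-high cells had 4.88, 8.94 and 67.5 CPM. The rest ran from 5.18 CPM through a median of 789 CPM to 28705 CPM, and the C1qb-high cells had 122, 7.94, 4.85 and 10.2 CPM.

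Otos-high and Ibsp-high cells again did not overlap, as for 0.515% of the genes at 1 CPM or more in at least 5 cells. In 11 of 12 Ibsp-high cells Clu was under its carry-over limit of 23.7 CPM, and the exception was cell 9 with 67.5 CPM. No cell lay between 14.6 and 67.5 CPM, so 19 cells were at or below the first value and 27 at or above the second. In the rest, 5 cells had no Clu above the limit. They were cells 17, 20, 33, 35 and 38. Of these, cells 33 and 35 had 8452 and 9133 CPM of Apod and 6482 and 5874 CPM of Apoe, so these 2 genes were high without Clu. The reverse was seen in cell 41, with 15896 CPM of Clu, 613 CPM of Apod and 720 CPM of Apoe. The highest Clu of all, in cell 36, stood with 7217 CPM of Apod and 11974 CPM of Apoe.

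**Figure D2:**
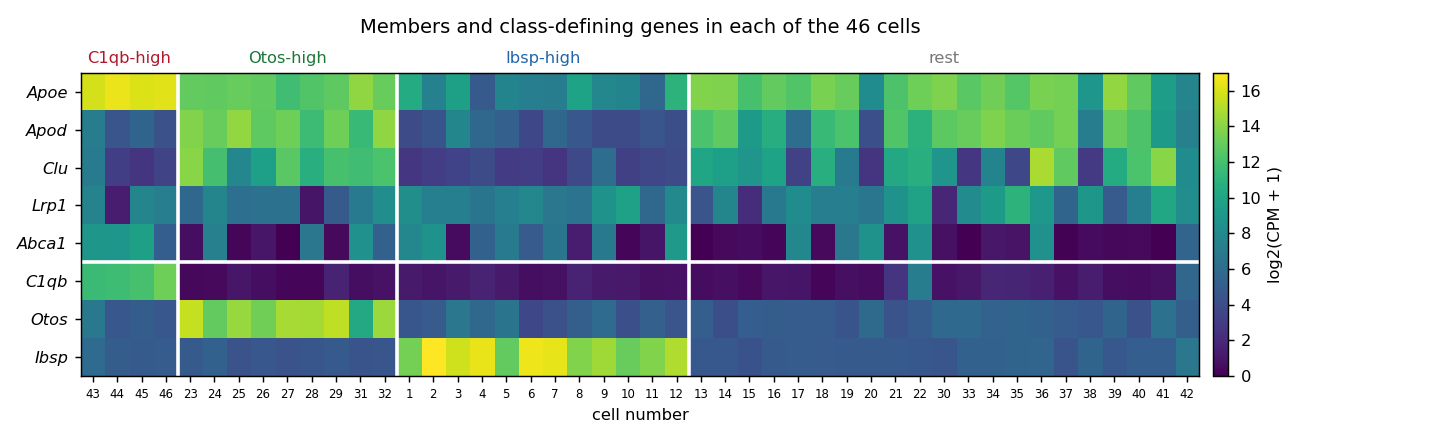
Members and the 3 class-defining genes in every cell, as log2(CPM + 1); columns are the 46 cells by class and number, rows are genes. All 9 Otos-high cells had Apoe, Apod and Clu together. Of Apoe, Apod and Clu, Ibsp-high cells had mainly Apoe, at up to 2042.5 CPM.

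Counted per cell, Apoe, Apod and Clu were all above the carry-over limit in 26 of 46 cells. These were 1 of 4 C1qb-high cells (cell 43), 9 of 9 Otos-high cells, 0 of 12 Ibsp-high cells and 16 of 21 cells of the rest. Apoe was the only one of the 3 above its limit in 2 C1qb-high cells, 7 Ibsp-high cells and 1 cell of the rest. Ibsp-high cell 11 had none of the 3. With limits at 0.5% of the mean the number of cells above was 44 for Apoe, 38 for Apod and 30 for Clu, and with limits at 2% it was 37, 30 and 27, against 44, 34 and 27 at 1%. In Ibsp-high cells alone, Apoe was above its limit in 10 of 12 cells at 0.5% and at 1%, and in 4 at 2%.

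Lrp1, the endocytic receptor, was present in nearly all cells. It reached at least 10 CPM in 42 of 46 cells (91.3%, 79.2% to 97.6%). The C1qb-high cells had 194, 1.55, 211 and 151 CPM. Otos-high cells had 0.970 CPM in the lowest, 85.4 CPM in the median and 324 CPM in the highest cell, Ibsp-high cells 51.3, 160 and 837 CPM, and the rest 2.55, 222 and 2075 CPM.

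All classes overlapped in Lrp1, and only the Ibsp-high class had no cell under 10 CPM. The 4 cells under 10 CPM were cell 44 (C1qb-high), cell 28 (Otos-high) and cells 15 and 30 (rest), and the next cell stood at 21.8 CPM. The highest levels were in cells 35 and 41 of the rest, at 2075 and 1172.5 CPM. Next came cell 22 of the rest at 901 CPM and Ibsp-high cell 10 at 837 CPM. The difference in mean log2(CPM + 1) between Ibsp-high cells and the rest was 0.19, with a pooled SD over cells of 2.05.

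Reads of Abca1 were present or nearly absent from cell to cell. Whether its RNA was lost in capture in the low cells was not tested. In 24 cells it was at or below 1.61 CPM and in 22 cells at or above 28.6 CPM, with no cell between. The 22 cells make 47.8% of the 46 (32.9% to 63.1%). They were 4 of 4 C1qb-high, 4 of 9 Otos-high, 8 of 12 Ibsp-high and 6 of 21 cells of the rest.

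The C1qb-high cells had 508, 490.5, 798 and 33.5 CPM of Abca1. The highest values elsewhere were 390 CPM in Otos-high cells (cell 31), 584 CPM in Ibsp-high cells (cell 12) and 432 CPM in the rest (cell 20). Medians were 499 CPM in C1qb-high, 1.05 CPM in Otos-high, 66.9 CPM in Ibsp-high cells and 0.512 CPM in the rest. The lowest cells had no read, which allows up to 3 reads and, with 1 read worth at most 0.347 CPM, up to 1.04 CPM, for counting error only. With every cell thinned to 2522853 reads, again 22 cells had at least 10 CPM. Among the 32 cells with at least 1000 CPM of Apoe, 14 had Abca1 at 10 CPM or more. Lrp1 and Abca1 were both at 10 CPM or more in 20 of 46 cells. Cell 31 also held the most Abcg1 of all cells, 532 CPM. Abcg1 encodes the partner transporter that loads lipid onto mature lipoprotein particles, and it was at 1 CPM or more in only 6 cells.

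**Figure D3:**
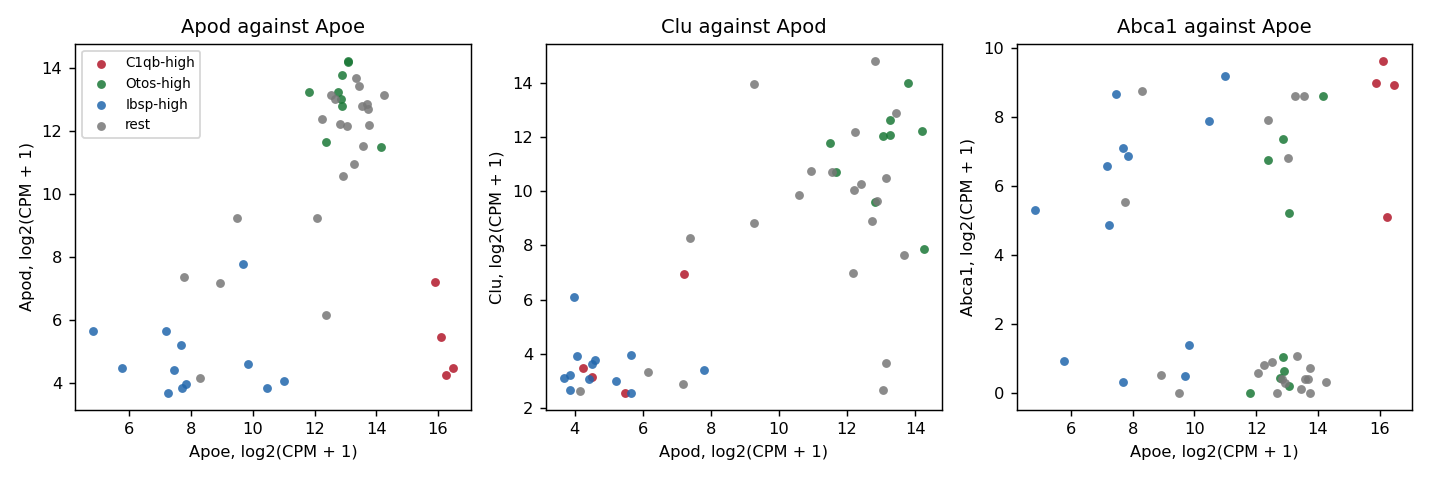
Pairs of members across the 46 cells, both axes as log2(CPM + 1); each point is a cell, coloured by class. Apod and Clu were high in the same classes, Apoe stood apart in the C1qb-high cells, and Abca1 formed 2 bands, with all 4 C1qb-high cells in the upper one.

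Levels of different genes were compared per kilobase of exon (GENCODE M21), since the exons span 2138 bases in Apoe, 2577 in Apod, 3437 in Clu, 17717 in Lrp1 and 10363 in Abca1. The annotation that the authors counted with is not given in the sources used here, so these lengths may differ from theirs. On this scale of CPM per kilobase, Apoe was first of 25466 genes in each of the 4 C1qb-high cells, with a median of 34603 CPM per kilobase. Its median rank was 9 in Otos-high cells, 463.5 in Ibsp-high cells and 5 in the rest. Apod had medians of 3790 CPM per kilobase in Otos-high cells and 8.15 in Ibsp-high cells, and its median rank in Otos-high cells was 8. Among the 5 members, the highest per kilobase was Apoe in 4 of 4 C1qb-high, 4 of 9 Otos-high, 11 of 12 Ibsp-high cells and 16 of 21 cells of the rest. It was Apod in 5 Otos-high cells, 1 Ibsp-high cell and 3 cells of the rest, and Clu in 2 cells of the rest. Lrp1 and Abca1 were never first. Lrp1 had a median of 8.99 CPM per kilobase over all cells.

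Differences between classes are given as differences of mean log2(CPM + 1), which understate those of low genes. A gene is counted as higher or lower where this difference was at least 2 and at least 75% of the cells of the higher class had 1 CPM or more. Of the genes, 11447 had 1 CPM or more in at least 5 cells, among them all 5 members. The members were chosen with these data in view, so the counts that follow describe them and are no support for a pattern. Cells of a class are not replicates.

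Between C1qb-high cells and all other cells, 4 of 5 members passed this rule, beside 14.9% of all genes (10.2% higher and 4.64% lower). Apoe was higher by 4.98, with means of 16.18 ± 0.25 (SD, n = 4) and 11.20 ± 2.63 (SD, n = 42). Abca1 was higher by 4.77 (8.17 ± 2.07 and 3.4 ± 3.51). Apod and Clu had differences of -4.30 and -3.74. Values of the 2 groups of cells did not overlap for Apoe, as for 0.699% of the 11447 genes. The limit of 5 cells left out genes at 1 CPM or more in the 4 C1qb-high cells alone. Without this limit 1314 genes in place of 1173 were higher, and the share without overlap was not computed. Lrp1 did not pass, at -1.11 with a pooled SD of 2.19, and its sign rested on cell 44, without which it was 0.44.

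Between Otos-high and Ibsp-high cells, 3 of 5 members passed, beside 9.06% of all genes (4.67% higher and 4.39% lower). Apod was higher in Otos-high cells by 8.32 (13.09 ± 0.99, n = 9, and 4.77 ± 1.17, n = 12), a larger difference in size than 99.9% of genes. Clu was higher by 7.90 and Apoe by 4.82. For all 3 the cells of the 2 classes did not overlap, as for 0.515% of all genes. Lrp1 differed by -1.57 and Abca1 by -1.61, and neither passed. Without Otos-high cell 24, 28 or 31 the difference of Abca1 was -2.11, -2.03 or -2.26 and passed, and with medians in place of means it was -4.91.

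Between Otos-high cells and the rest, 2 of 5 members passed, beside 4.52% of all genes (3.29% higher and 1.22% lower). Clu was higher in Otos-high cells by 2.80 and Apod by 2.12, against pooled SDs of 3.29 and 2.35. The call for Apod was lost without cell 25 or cell 32 (1.97 and 1.98), and with medians it was 1.05. Apoe differed by 0.61, Lrp1 by -1.38 and Abca1 by 0.85, and none of these passed. With medians Apoe differed by -0.06. The value of Abca1 ran from 0.19 to 1.27 when single Otos-high cells were left out and was -0.09 with doubled thresholds. Without cell 28 that of Lrp1 was -0.76. Classes overlapped for all 5, and 0.00874% of all genes had no overlap.

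Between Ibsp-high cells and the rest, 4 of 5 members passed, beside 5.01% of all genes (3.34% higher and 1.67% lower). Apod, Clu and Apoe had differences of -6.20, -5.10 and -4.22. Abca1 was higher in Ibsp-high cells by 2.45 (4.97 ± 3.33, n = 12, and 2.52 ± 3.44, n = 21), which did not pass with a pseudocount of 10 (1.31). It was at 1 CPM or more in 9 of 12 Ibsp-high cells, 75%, the least that passes. Of these 9, cell 8 had only 1.61 CPM, and 8 had 10 CPM or more. The call thus rested on cell 8, and no Ibsp-high cell was left out in the alternatives. No member was free of overlap here, as only 0.0699% of all genes were. The comparisons share cells, so their values are not independent of each other.

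**Figure D4:**
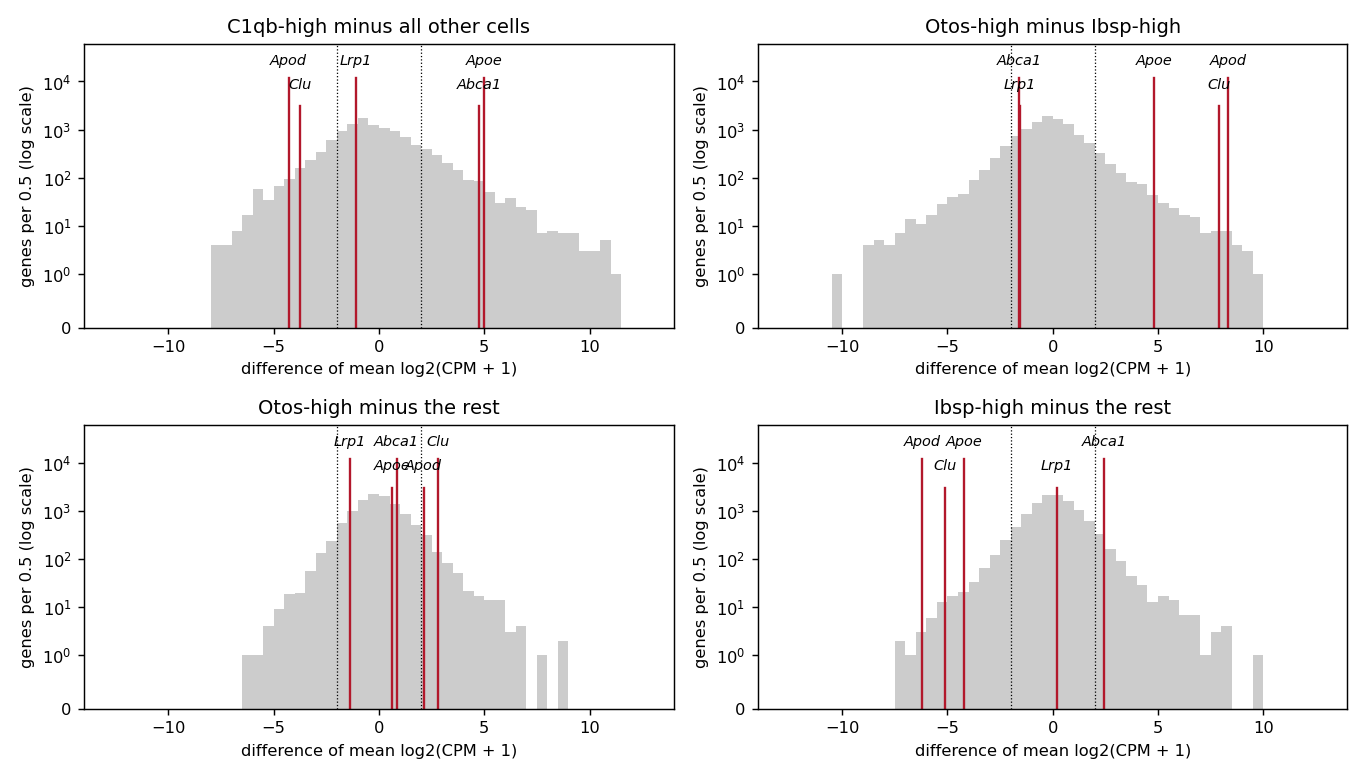
Difference in mean log2(CPM + 1) for all 11447 genes (grey bars, number per bin of 0.5, log scale) and for the 5 members (red lines) in 4 comparisons; dotted lines mark a difference of 2 in either direction. Apod and Clu stood at 8.32 and 7.90 between Otos-high and Ibsp-high cells, and Lrp1 at 0.19 between Ibsp-high cells and the rest.

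Across all 46 cells, Apod and Clu had a Spearman rho of 0.68, Apoe and Apod 0.47, and Apoe and Clu 0.38. Apod and Abca1 had a rho of -0.49 and Clu and Abca1 of -0.35. Apoe and Abca1 had a rho of -0.01, and Lrp1 and Abca1 of 0.17. These values carry the difference between classes. Without the C1qb-high cells (n = 42) the rho of Apoe was 0.72 with Apod, 0.62 with Clu and -0.24 with Abca1. Within the rest alone (n = 21), Apoe and Apod had 0.62, Apod and Clu 0.24, and Apoe and Abca1 -0.27. Within the Ibsp-high cells (n = 12) these values were -0.26, 0.06 and 0.27. Apod was above its carry-over limit in 3 of these 12 cells and Clu in 1. The values with Apod there thus rank mostly reads at the carry-over level, and their sign is not read as a difference between classes. Cells share the series' library preparation, and rho with the number of reads per cell was 0.37 for Apod, 0.48 for Clu and -0.39 for Abca1.

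Of 20 other apolipoprotein genes, 11 had no read in any cell and 3 passed the limit of 5 cells at 1 CPM (Apoa2, Apoo and Apool), with 0 called in each of the 4 comparisons. Apob, Apoa4 and Apoc3 were among those with no read. Apoa2 was at 1 CPM or more in 7 cells, with at most 17.7 CPM, Apof in 1 cell, with 82.5 CPM, and Apoa1 in 1 cell, with 2.74 CPM. Apoc1 and Apoc2 lie next to Apoe on chromosome 7. Apoc2 was at 1 CPM or more in 3 cells, all C1qb-high, with a highest value of 33.7 CPM. Apoc1 was found in 2 C1qb-high cells and 2 cells of the rest, with at most 26.5 CPM. Apoc4 had no read. Tomm40, the mitochondrial import gene on the other side of Apoe, was at 1 CPM or more in 28 cells. Its medians were 28.5 CPM in C1qb-high, 26.5 CPM in Otos-high and 103 CPM in Ibsp-high cells and 0.518 CPM in the rest, an order unlike that of Apoe.

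Among 22 receptors of the LDL receptor family and their helpers, 14 passed the limit, and 2 were higher and 1 lower in C1qb-high cells than in all other cells (median difference -0.83, beside -0.47 over all genes). Mylip, whose product marks lipoprotein receptors for degradation, was at 253 to 755 CPM in the C1qb-high cells. Its medians in the other classes were at most 0.776 CPM. Single cells there reached 148 CPM (Otos-high), 188 CPM (Ibsp-high) and 416 CPM (rest), so the classes overlapped. Dab2, an endocytic adaptor, had a median of 2535 CPM in C1qb-high cells, with 258 to 3071 CPM. Its highest value of all, 3351 CPM, was in cell 42 of the rest. Lrp4 was at 1 CPM or more in 11 of 12 Ibsp-high cells and in no other cell, with a median of 38 CPM. Vldlr was at 1 CPM or more in 8 of 12 Ibsp-high cells, up to 1444 CPM, and in 3 of the other 34 cells. Lrpap1, the chaperone of Lrp1, was found in all 46 cells, with medians of 191, 517, 216 and 409 CPM in C1qb-high, Otos-high and Ibsp-high cells and the rest. Counts in the other comparisons were 1 lower between Otos-high and Ibsp-high cells (Lrp4), none between Otos-high cells and the rest, and 2 higher, Lrp4 among them, and 1 lower (Dab2) between Ibsp-high cells and the rest. In this order of comparisons, 21.4%, 7.14%, 0% and 21.4% of the 14 were called. The shares of all genes were 14.9%, 9.06%, 4.52% and 5.01%.

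Of 12 other lipid exporting ABC transporters 6 passed the limit and 1 was called, Abca9, which was higher in C1qb-high cells than in all other cells by 4.77. This was 16.7% of the 6, beside 14.9% of all genes. Of 18 genes of lipoprotein remodelling and scavenging, 11 passed the limit. Between C1qb-high and all other cells 4 were higher and 2 lower. Cd68, Stab1, Lipa, the lysosomal lipase, and Scarb1, a receptor for high density lipoprotein, were higher, with medians of 713, 361, 359 and 153 CPM in C1qb-high cells. Lcat (-4.07) and Bsg (-2.87), the gene of the membrane protein basigin, were lower. Trem2, a lipid-sensing receptor of macrophages that binds Apoe, and its adaptor Tyrobp were at 1 CPM or more in the 4 C1qb-high cells alone, with medians of 300.2 and 542 CPM, and so did not reach the limit of 5 cells. Lcat, which encodes the enzyme that esterifies cholesterol on lipoproteins, was at 164 to 2528 CPM in all 9 Otos-high cells, against 0.778 to 501 CPM in Ibsp-high cells (difference 6.26). Pltp, the gene of a phospholipid transfer protein, had the opposite order, with medians of 0.978 CPM in Otos-high and 118 CPM in Ibsp-high cells (difference -4.60). Between Otos-high cells and the rest, Lcat was higher by 5.24 and Pltp lower (-3.22). None was called between Ibsp-high cells and the rest. In this order of comparisons, 54.5%, 18.2%, 18.2% and 0% of the 11 were called. The shares of all genes were 14.9%, 9.06%, 4.52% and 5.01%.

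Of 28 LXR and sterol genes, 24 passed the limit. The counts were 4 higher and 2 lower in C1qb-high cells against all other cells, 2 higher and 1 lower in Otos-high against Ibsp-high cells, 3 higher in Otos-high cells against the rest and 1 lower in Ibsp-high cells against the rest. These were 25%, 12.5%, 12.5% and 4.17% of the 24, beside 14.9%, 9.06%, 4.52% and 5.01% of all genes. The 2 lower ones in C1qb-high cells were Srebf1 (-4.33) and Scd1 (-4.45). Cyp27a1, the gene of a sterol hydroxylase, was at 94.3 to 617 CPM in C1qb-high cells and had medians of at most 0.262 CPM in the other classes. Single cells reached 204 CPM in the Otos-high class and 173 CPM in the rest, so these overlapped with the C1qb-high cells. Npc1 and Npc2, which move cholesterol out of lysosomes, were higher in C1qb-high cells by 2.28 and 2.07. Soat1, the gene of a cholesterol esterifying enzyme, was higher in Otos-high than in Ibsp-high cells (3.05) and the rest (2.15). Srebf1, a lipogenic transcription factor gene, was called in all 4 comparisons, with medians of 0.407 CPM in C1qb-high, 241 CPM in Otos-high and 3.19 CPM in Ibsp-high cells and 132 CPM in the rest. The LXR genes themselves were not called. Nr1h2 was at 1 CPM or more in 37 cells, and Nr1h3 in 10 cells, none of them C1qb-high.

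Of 15 lipocalins and lipid carriers, 8 passed the limit. Ptgds, a lipocalin and prostaglandin D synthase, was higher in Otos-high cells than in Ibsp-high cells (4.07) and the rest (4.57), with 5830 CPM in cell 23. Ptgs1, a cyclooxygenase gene, was higher in C1qb-high cells (6.35). Of 18 genes for other ligands and partners of Lrp1, 14 passed the limit and 1 was higher and 7 lower in C1qb-high cells than in all other cells (median -3.48). Psap, the prosaposin gene, was the higher one (2.90), and Serpine2, Serping1 and Timp3, inhibitors of proteases, were among the lower ones (-6.59, -5.59 and -5.58). Between Otos-high and Ibsp-high cells 4 were higher, among them A2m (5.28) and Serpine2 (3.71), and Thbs1 was lower (-2.11). Between Otos-high cells and the rest 2 were higher and 2 lower, and between Ibsp-high cells and the rest 1 was higher (Thbs1, 3.59) and 4 lower, with -4.71 for Serping1. In this order of comparisons, 57.1%, 35.7%, 28.6% and 35.7% of the 14 were called. For the 8 lipocalins and carriers the shares were 25%, 12.5%, 25% and 12.5%. Those of all genes were 14.9%, 9.06%, 4.52% and 5.01%.

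**Figure D5:**
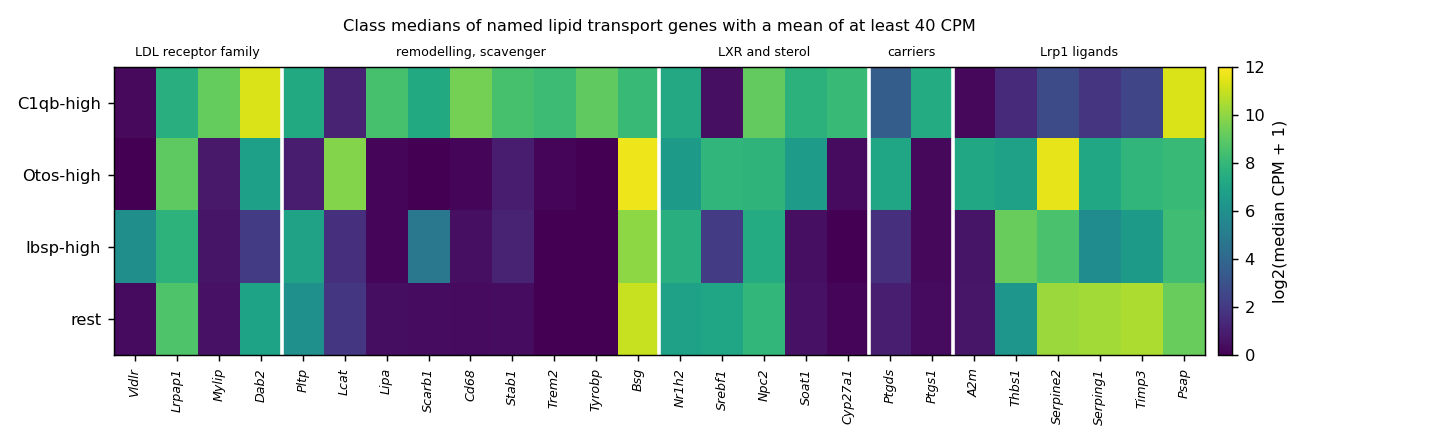
Class medians of the listed genes named in the text, other than Scd1, with a mean of at least 40 CPM over all cells, as log2(median CPM + 1). Rows are classes, columns are genes grouped by list. Mylip, Dab2, Lipa and Trem2 were high in C1qb-high cells, and Lcat stood at 878 CPM in Otos-high cells.

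The genes most like each member over the 46 cells were named by Spearman rho, from genes at 1 CPM or more in at least 10 cells. For Apoe these were B2m (0.76), Fth1 (0.69), Ctsh (0.58) and Pla2g16 (0.58). B2m, the gene of the light chain of class I histocompatibility molecules, had medians of 1737, 841, 129 and 385 CPM in C1qb-high, Otos-high and Ibsp-high cells and the rest. For Apod they were Pla2g16 (0.78), Mrps6 (0.77), Slc5a3 (0.77) and Igfbp2 (0.75). Slc5a3, a carrier of inositol, lies inside the locus of Mrps6 on the same strand, so the reads of these 2 genes may be shared. For Clu they were Lbp (0.73), Skp1a (0.66), Car14 (0.65) and Igfbp2 (0.65). Lbp, the gene of the lipopolysaccharide binding protein, had medians of 386 CPM in Otos-high, 1.01 CPM in Ibsp-high cells and 277 CPM in the rest. The likest genes of Lrp1 had lower values, with 0.50 for Sdf4, 0.49 for Iqgap1 and 0.48 for Axl. For Abca1 they were Igtp, Klf10, Trim8 and Eif3b, at 0.54 to 0.56.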

How the data were processed

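Single-cell RNA was measured in 46 hand-picked cochlear cells, with libraries made by SMART-Seq v4 and ThruPLEX, per the labels' protocols. bcl2fastq 2 and STAR 2.7.3a were used with GRCm38 and mm10, per the submitters' processing notes. No source used here names the counting program, the annotation or the strand setting. The authors deposited CPM, named so in the file header. Listed genes summed to 86.4% to 93.5% of 1000000. All values above 0 (100%) were whole multiples of 1 read within 0.01 read, which gave 2522853 to 10350249 reads per cell (median 4789573). A count test on these reads was not run, because 1 labelled group with no named animal leaves no second sample. The intervals on shares of cells treat the 46 cells as independent draws, cover sampling of cells only, and leave out any difference between animals. Limits from 3 reads cover counting error only, and PCR copies of 1 molecule could not be told apart.

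Classes, means of log2(CPM + 1) and Spearman rho were computed in Python 3.11.15 with pandas 2.3.3 and scipy 1.17.1, and the rule for calls was tested on simulated data. The simulated data held no carry-over and no low and high bands like those of Abca1, so the rule was not tested for these. Members, lists and rules were chosen with earlier results of these data known. Of the fixed lists all genes matched by symbol. Named genes are the members, the 4 genes most like each, and, of each list, those with the highest means or largest called differences; Trem2, Tyrobp, Vldlr, Abcg1, Npc1 and the LXR genes, and single cells, were named after their values were seen. Some genes that this rule names are not reported here. The alternatives were other pseudocounts, thresholds, scaling, medians, no filter, thinned reads and leaving out cells. The carry-over limit and leaving out cells 20 and 42 were added after seeing the data.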

Additional observations from a re-analysis of the deposited data

How the results depend on the processing

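No alternative changed the sign of any of the 13 called differences of members, and none of the 20 differences moved by more than its pooled SD over cells, in 265 values. These SDs were wide, at up to 3.92, so large shifts stayed within them. With medians, Abca1 in C1qb-high cells against all other cells went from 4.77 to 7.98. Of the 7 differences that were not called, 4 had the other sign in 5 values. These were Lrp1 in C1qb-high cells against all other cells (0.44 without cell 44 and 0.11 with medians), Apoe (-0.06 with medians) and Abca1 (-0.09 with doubled thresholds) in Otos-high cells against the rest, and Lrp1 in Ibsp-high cells against the rest (-0.46 with medians). In 11 of them a member passed or missed the rule otherwise than in the report, all for Abca1 between Otos-high and Ibsp-high cells or between Ibsp-high cells and the rest, or for Apod between Otos-high cells and the rest. Beside those given there, Abca1 between Otos-high and Ibsp-high cells was -2.21 with a pseudocount of 0.1 and -2.26 with doubled thresholds, and Apod was 1.57 without cells 20 and 42 of the rest. The numbers of genes called depended on the pseudocount. With a pseudocount of 10, 531 genes were higher and 323 lower in C1qb-high cells than in all other cells, 278 and 239 in Otos-high than in Ibsp-high cells, 127 and 61 in Otos-high cells than in the rest, and 139 and 101 in Ibsp-high cells than in the rest. The numbers in the same order with a pseudocount of 1 were 1173 and 531, 535 and 502, 377 and 140, and 382 and 191. With a pseudocount of 0.1, 569 genes were higher in Otos-high cells and 588 in Ibsp-high cells than in the rest. With thresholds divided by 5, cell 22 joined the C1qb-high cells and 765 genes were higher there. With reads thinned, 100% of cells had Lrp1 at 1 CPM or more, against 97.8%. The cause of these changes was not tested. No paired analysis was possible because all cells carry the same group label and no animal is named. Shares and levels describe these hand-picked cells and not the tissue.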
